A study of Mus musculus with 28 samples.

Results

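Transcripts of 7 dense core granule proteins were followed in mouse pituitary: Vgf, the chromogranins Chga and Chgb, the secretogranins Scg2, Scg3 and Scg5, and Pcsk1n. They were chosen by name as the granin family and its associates, and they are 7 of the 32594 genes in the count table. All 7 passed the filter on low counts in every model. RNA came from whole pituitary glands of 28 C57BL/6J mice, 16 females and 12 males, with an age of 8 weeks in the labels. The study asks how an earlier loss of sleep alters the response of the gland to a short stressor. Paradoxical sleep deprivation (PSD) placed cage mates for 12 h on small columns in water, a method that removes mainly rapid-eye-movement sleep, and restraint held a mouse in a narrow tube for 20 min. Each sex had 4 groups. By the paper's account, mice of every group, controls included, had first spent 1 h a day on the columns on 3 days to get used to them. Home cage controls had neither treatment beyond that, and 4 females and 4 males were sequenced. Restrained mice (4 females, 2 males) came from the home cage and were killed 10 min after the end of restraint. PSD mice (4 females, 3 males) were killed without restraint 18 h after the end of PSD. PSD + restraint mice (4 females, 3 males) had PSD and then restraint at that later time, so the gland always reflects the state long after sleep loss and soon after restraint. No group carried a transgene, and each library was 1 gland of 1 mouse. The number in a sample title names a mouse within its group. Comparisons of the 3 treatments with controls share the control mice of each sex, so their values are given side by side and not as independent results.

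Granins are acidic proteins that aggregate with prohormones in the trans-Golgi network and help to form dense core granules, the stores from which endocrine cells and neurons release peptides on demand. Chromogranin A and B and secretogranin II are cut in the granule into smaller peptides, and VGF, a growth factor-inducible protein, is likewise a precursor of several peptides. Secretogranin III links granin aggregates to the granule membrane, while SCG5 (7B2) and PCSK1N (proSAAS) bind and restrain the prohormone convertases PC2 and PC1/3. Every hormone cell type of the pituitary makes granins, in amounts that differ between the types, so that a level in the whole gland sums over them.

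The genes lie on 6 chromosomes (GRCm38, GENCODE M21 models): Vgf at chr5:137026392-137033351 (plus strand), Chga at chr12:102554969-102565028 (plus strand), Chgb at chr2:132781278-132795079 (plus strand), Scg2 at chr1:79434669-79440120 (minus strand), Scg3 at chr9:75643189-75684056 (minus strand), Scg5 at chr2:113776362-113829121 (minus strand) and Pcsk1n at chrX:7919822-7924410 (plus strand). RefSeq promoter sequence (GRCm38.p6) was at hand for 6 of the 7, all but Vgf. In the 250 bases before each start, both strands were searched for the cAMP response element TGACGTCA, which 1.55% of 32851 promoters hold, and for its core TGACG, which 17.8% hold and which overlaps the full element. The full element occurred in Chgb and Scg2, and the core in those 2 and in Chga, Scg3 and Scg5. The stretches of Chga and Scg2, whose transcripts rose in the comparisons that follow, are shown beside that of Chgb, whose transcript was called higher in none by edgeR or DESeq2, with the matched letters in capitals and the gene strand written 5′ to 3′.
Chga, chr12:102554886-102554915, core: gggcggtcctaTGACGtaatttcctgggtg
Scg2, chr1:79440076-79440105, full element: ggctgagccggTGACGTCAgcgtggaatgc
Chgb, chr2:132781559-132781588, full element: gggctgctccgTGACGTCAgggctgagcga
The matches begin 44, 68 and 72 bases before the RefSeq starts of Chga, Scg2 and Chgb, and the stretches of Scg2 and Chgb lie inside exons of the longer GENCODE models. A full element was thus found before 1 gene that rose and 1 that did not, and the letters alone do not set the members apart. Of the other motifs searched, AP-1 (TGACTCA or TGAGTCA, in 4.46% of promoters) occurred once, in Pcsk1n, and EGR1 (GCGTGGGCG or GCGGGGGCG, in 3.06%) once, in Chgb. The NBRE (AAAGGTCA, in 1.34%) occurred in none of the 6.

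Libraries held 14024465 to 52948531 counts, and 3 of the 4 PSD females were among the shallow ones (18035775 to 19532245 counts). The label pituitary was borne out by hormone transcripts in every mouse, with Gh at 59892 CPM (counts scaled to library size) or more and Prl at 30866 CPM or more. Male control 1 stood apart. Its neurointermediate lobe score, the mean log2 CPM of Pax7, Oacyl, Rax, Col25a1, Scn7a and Nkx2-1, was 1.37, against 4.42 to 5.62 in the other 27 mice, and it had the lowest level of all 6 markers, with none at 0. Female PSD mouse 1 had the highest forebrain score (mean log2 CPM of Neurod6, Tbr1, Slc17a7 and Camk2a), 2.75, against 1.79 in the next mouse. Calls of the members that rest on these 2 libraries, and the main values short of the threshold, are given with and without them.

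Per length of transcript, Chgb led the members in control females and Scg2 in control males, while Vgf was far below the others in both sexes. In control females, Chgb had 1625 ± 112 CPM per kb (SD, n = 4). There Chga followed at 932 ± 87.1 CPM per kb, then Scg5 at 775 ± 25.4 and Scg2 at 663 ± 99.7. In control males, Scg2 stood at 1598 ± 141 CPM per kb, Chgb at 1494 ± 247 and Chga at 1421 ± 279.8, 3 neighbours whose order lay within their spread. Scg3 and Pcsk1n formed a lower tier in each sex, with 296 ± 29.99 and 233 ± 55.6 CPM per kb in control females. Vgf had 6.33 ± 1.65 CPM per kb in control females and 5.16 ± 1.91 in control males. Over all 28 mice, the order Scg5 above Scg3 and Pcsk1n above Vgf held in 28 of 28, but Chga stood above Chgb in only 17. With the union of all exons as the length in place of the mean transcript, Chga fell from 1625 to 645 CPM per kb over all mice, below Scg2 (1193), so levels are compared between genes only as tiers.

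**Figure D1:**
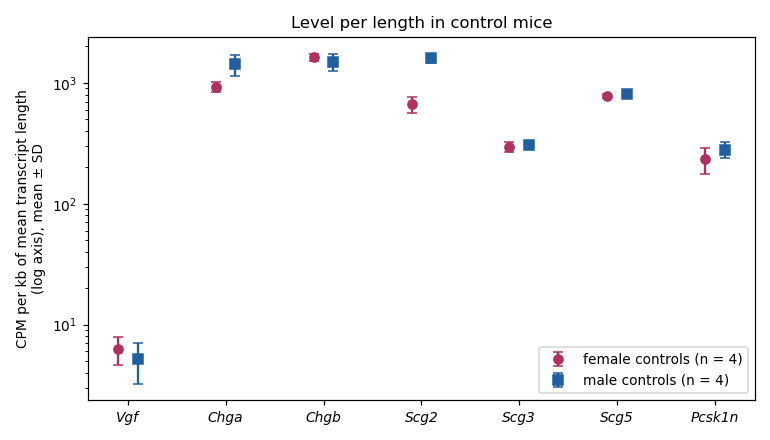
Level per length of the 7 transcripts in control mice, as CPM per kb of mean transcript length on a log axis, with the mean and SD of 4 females (circles) and 4 males (squares). Vgf lies at 6.33 in females and 5.16 in males, and Scg2 at 663 in females and 1598 in males.

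PSD followed by restraint raised 3 of the 7 transcripts in females, Vgf, Chga and Scg2, against 2.2% of 18059 genes called in that comparison in either direction in the quasi-likelihood test of edgeR. A gene was called at a Benjamini-Hochberg adjusted p (FDR, taken over all genes tested) of no more than 0.05 and a difference of 1.25-fold or more, and every log2 change is given ± its standard error. Vgf, the neurotrophin-inducible precursor, was counted at 13.0, 15.4, 8.26 and 15.5 CPM in the control females and at 45.2, 35.0, 39.3 and 26.2 CPM in the PSD + restraint females. The groups did not overlap, and the lowest PSD + restraint female lay above the highest control. Means were 13.1 ± 3.40 CPM (SD, n = 4) and 36.4 ± 7.99 CPM (SD, n = 4), a 2.81-fold rise with a log2 change of 1.49 ± 0.26 (FDR = 0.00588). Chga, whose protein drives granule formation, stood at 1157, 971, 942 and 1009.7 CPM in control females and at 2239, 2112, 1929 and 1617 CPM after PSD + restraint, again without overlap. It rose by a log2 change of 0.96 ± 0.20 (FDR = 0.0196), or 1.95-fold. Scg2, the precursor of secretoneurin, was at 1802, 1371, 1817 and 1416 CPM in control females and at 3048, 2917, 2922 and 2139.8 CPM after PSD + restraint. Here too the groups stayed apart, with 3 PSD + restraint females close together and mouse 4 below them. With so few mice per group, lack of overlap can arise by chance. How many of all genes separate in this way was not counted. It is therefore a description only, here and in all later comparisons. Scg2 rose 1.73-fold, with a log2 change of 0.79 ± 0.16 (FDR = 0.0145). The other 4 members had log2 changes between -0.10 (Scg3) and 0.16 (Pcsk1n). A whole-gland level cannot tell more RNA per cell apart from more cells of a type, here and in all later comparisons.

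These female calls were not equally firm. Vgf was called without any 1 of the 8 mice compared. Chga was not called without control 2, 3 or 4 (FDR = 0.0608, 0.0561 and 0.0638) or without PSD + restraint mouse 1 or 2 (FDR = 0.0725 and 0.0525). Scg2 was not called without control 2 or 4 or without PSD + restraint mouse 1 (FDR = 0.0518, 0.0576 and 0.0597). The neurointermediate lobe score moved with the treatment, from 4.47 to 5.06 in control females to 5.09 to 5.56 in PSD + restraint females, so that the 2 ranges did not meet. Its 6 markers summed to 603 to 909 CPM in the controls and 894 to 1326 CPM after PSD + restraint. Of these, 6 of 6 were higher and 0 called (edgeR, 5 at an unadjusted p under 0.05, as were 3649 of all 18059 genes). Of 3 macrophage markers, C1qa was called, at 23.1 ± 0.994 CPM (SD, n = 4) in controls and 31.5 ± 1.06 CPM (SD, n = 4) after PSD + restraint, with a log2 change of 0.46 (FDR = 0.0476), while Csf1r and Cx3cr1 were not. The 3 summed to 55.6 to 59.8 CPM in controls and 65.9 to 76.9 CPM after PSD + restraint. Of 2 forebrain markers tested, both higher, and of 3 corticotrope markers, 2 of them higher, 0 were called. On each of these lists 1 had an unadjusted p under 0.05 (edgeR), and the highest log2 changes were 1.11 and 0.38. Pomc was at 48361 ± 14326 CPM (SD, n = 4) in controls and 84997 ± 14942 CPM (SD, n = 4) after PSD + restraint. The part of these markers in the result was not tested. With the lobe score as a term of the model, no member was called in females: Vgf had a log2 change of 1.02 (FDR = 0.102), Chga 0.47 (FDR = 0.101) and Scg2 0.57 (FDR = 0.193).

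In males, PSD + restraint raised 2 of the 7 members, Vgf and Chga, against 2.56% of 18271 genes called. Vgf was at 7.22, 10.9, 8.34 and 16.1 CPM in the control males and at 34.3, 42.5 and 22.9 CPM in the PSD + restraint males. All 3 treated males lay above all 4 controls. The rise was 3.15-fold, with a log2 change of 1.65 ± 0.25 (FDR = 0.00506). Chga stood at 1145, 1573, 1616 and 1886 CPM in control males and at 2824, 2705 and 2176 CPM after PSD + restraint, without overlap, and rose 1.66-fold with a log2 change of 0.73 ± 0.16 (FDR = 0.0336). Male control 1, with little neurointermediate lobe RNA, was the lowest control for both genes. Without it, Vgf had a log2 change of 1.50 (FDR = 0.006) and Chga of 0.61 (FDR = 0.0375), and both were still called. The lobe markers were higher in PSD + restraint males too, 6 of 6, with 0 called (edgeR, 1 at an unadjusted p under 0.05, as were 3181 of all 18271 genes). They summed to 160 to 826 CPM in controls, with male control 1 the lowest, and 750 to 1433 CPM after PSD + restraint. PSD + restraint male 3 had the lowest score of the treated males, 4.51 against 5.37 and 5.62, and also the lowest Vgf and Chga. With the score as a term, the log2 changes were 1.37 (FDR = 0.00632) for Vgf and 0.54 (FDR = 0.0472) for Chga, both called. Male control 1, at a score of 1.37 against 4.51 to 5.62 in the other males, was kept in that fit and weighs heavily on the term. Whether the calls hold with the term and without that mouse was not tested. The Chga call was lost without control 2 or 3 (FDR = 0.0642 and 0.0783) and without PSD + restraint male 1 or 2 (FDR = 0.142 and 0.124). Vgf was called without any 1 of the 7 mice compared. The forebrain score or log2 total count as a term also ended the Chga call (0.64 (FDR = 0.0508) and 0.82 (FDR = 0.0676)), as did the replicate block (0.86 (FDR = 0.0538)).

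Scg2 showed no such rise in males. It was at 4266, 3487, 3699 and 3992 CPM in control males and at 4359.6, 4675 and 4028 CPM after PSD + restraint, and the groups overlapped. Its log2 change was 0.18 ± 0.08 (FDR = 0.265), in a sex where the control level was already above that of every female. The difference between the sexes in the Scg2 response, tested itself, was 0.61 ± 0.20 (FDR = 0.573), so a different response in females and males was not shown. Among the other male values, Chgb had a log2 change of 0.02, Scg3 of -0.07, Scg5 of 0.01 and Pcsk1n of -0.24, none of them called.

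**Figure D2:**
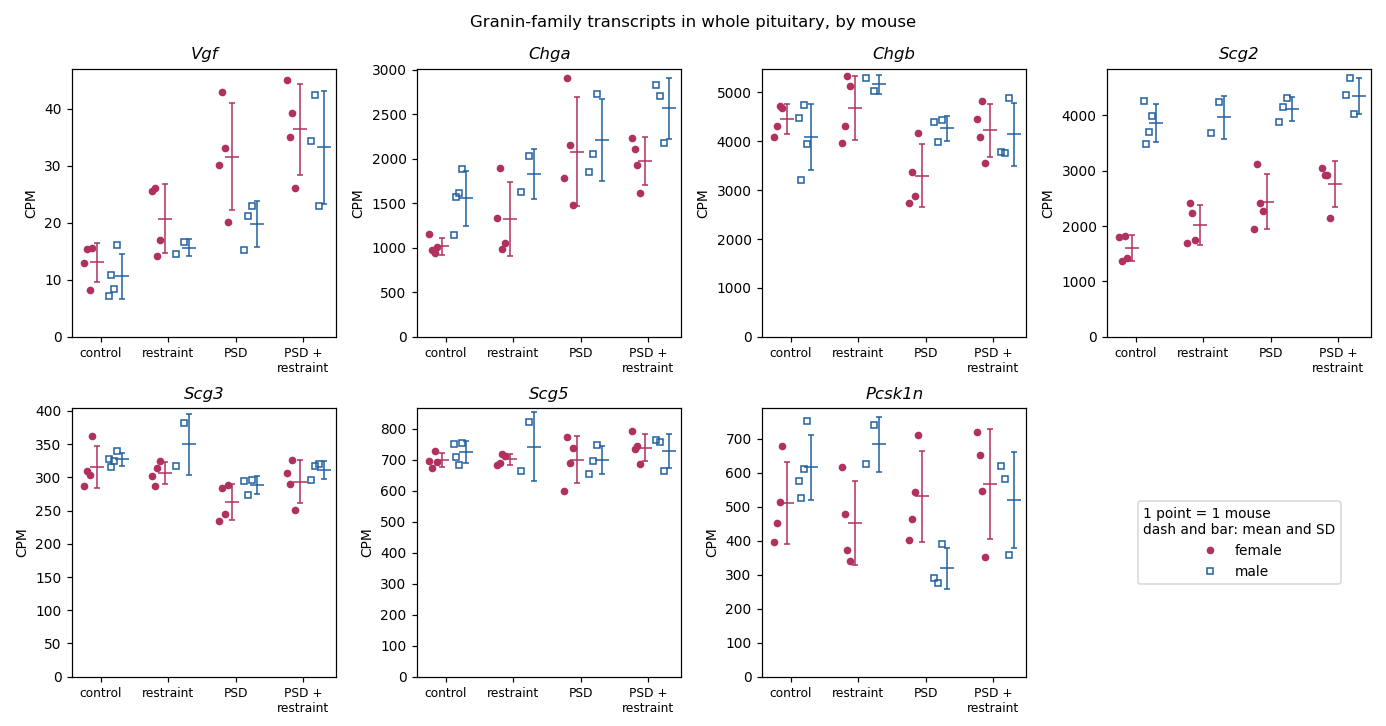
CPM of each member in every mouse, by treatment (horizontal axis) and sex (filled circles for females, open squares for males), with the mean and SD beside the points and axes from 0. All PSD + restraint mice lie above all controls of their sex for Vgf and Chga, and the 12 males lie above the 16 females for Scg2.

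With females and males in 1 model, Vgf, Chga and Scg2 rose after PSD + restraint, 3 of 7 members against 5.46% of 18936 genes. The log2 changes were 1.56 ± 0.19 (FDR = 3.8e-06) for Vgf, 0.84 ± 0.15 (FDR = 3.2e-04) for Chga and 0.50 ± 0.11 (FDR = 0.00501) for Scg2. All 3 were called under each of the 24 alternatives, which include leaving out each of the 15 control and PSD + restraint mice in turn. With the lobe score as a term the log2 changes were 1.30 (FDR = 4.4e-05), 0.65 (FDR = 0.00299) and 0.52 (FDR = 0.0117). Male control 1, its score far from all others, was kept in that fit and weighs heavily on the term. Within groups, the Pearson r of Scg2 with the score was 0.044 with that mouse and 0.518 without it. Whether the values hold with the term and without that mouse was not tested. With both of the libraries that stood apart left out, the values were 1.49 (FDR = 1.5e-05) for Vgf, 0.79 (FDR = 9.5e-04) for Chga and 0.54 (FDR = 0.00214) for Scg2. Chgb had a log2 change of -0.02 (FDR = 0.934) in the same mice.

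**Figure D3:**
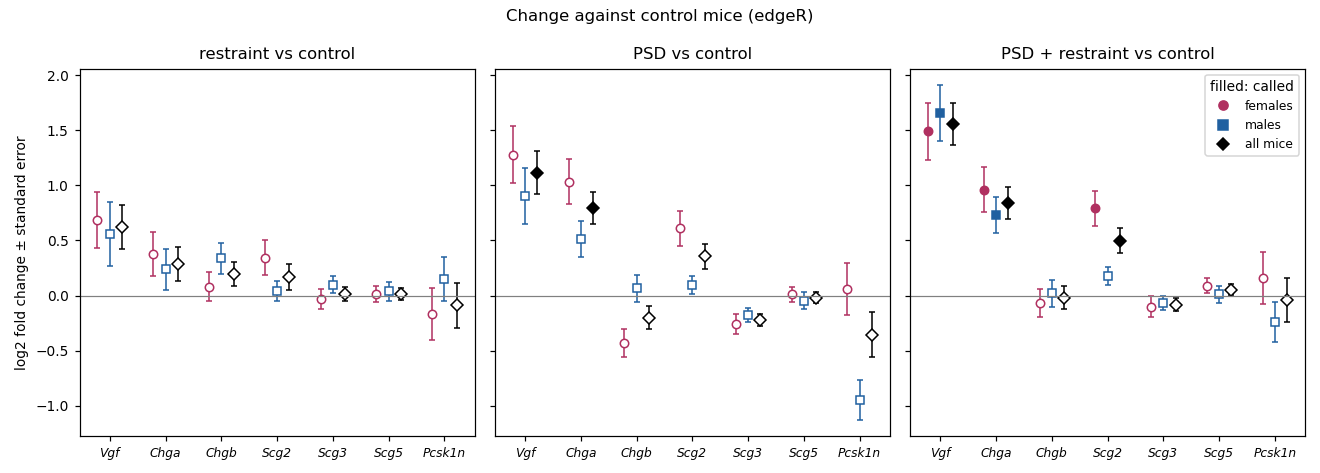
Log2 fold change of each member against home cage controls, with its standard error (edgeR), after restraint, PSD and PSD + restraint, in females (circles), males (squares) and all mice (diamonds). Filled symbols are called, which after PSD + restraint are Vgf and Chga in all 3 models and Scg2 in females and all mice.

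PSD alone, with glands taken 18 h later, called none of the members in either sex by edgeR, but Vgf and Chga rose when both sexes were modelled together. In that model 2 of 7 members were called against 0.671% of genes, Vgf with a log2 change of 1.11 ± 0.19 (FDR = 0.0041) and Chga with 0.80 ± 0.15 (FDR = 0.00738). Both were called under each of the 24 alternatives, and without the 2 libraries that stood apart they had 1.04 (FDR = 0.0216) and 0.77 (FDR = 0.0261). With the lobe score as a term they had 0.93 (FDR = 0.0128) and 0.66 (FDR = 0.0235). Male control 1 was kept in this fit too, and the term was not tried without it.

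In females, PSD gave Vgf at 30.1, 43.0, 33.1 and 20.1 CPM and Chga at 1782, 2903, 2149.9 and 1481 CPM, all above the control females quoted before. The log2 changes were 1.28 ± 0.26 (FDR = 0.0742) for Vgf and 1.03 ± 0.20 (FDR = 0.0738) for Chga, of the size seen after PSD + restraint but short of the threshold. By edgeR 0 of 7 members and 0.0277% of all genes were called. An unadjusted p under 0.05 was found for 5 members, and for 3567 of all 18059 genes. DESeq2 called 4 members (Vgf, Chga, Scg2 and Chgb). Its share of all genes is not given here, so that count is not read as particular to the members. Scg2 reached 1941, 3124, 2412 and 2272 CPM, above every control female, with a log2 change of 0.61 ± 0.16 (FDR = 0.109). Chgb went the other way, at 2746, 3366, 2887 and 4174 CPM against 4088, 4315, 4723 and 4688 CPM in controls, where mouse 4 alone lay within the control range, and its log2 change was -0.43 ± 0.13 (FDR = 0.136). PSD female 4 had the lowest Vgf and Chga and the highest Chgb of its group, with the lowest lobe score (4.87, against 5.09 to 5.59) and the deepest library (42243802 counts). Without it 3 members were called, Vgf at 1.45 (FDR = 0.0262), Chga at 1.17 (FDR = 0.0262) and Chgb at -0.56 (FDR = 0.0324). The share of all genes called without that mouse is not given here. Without PSD female 1, whose forebrain score was the highest, Vgf had 1.29 (FDR = 0.128) and Chga 1.09 (FDR = 0.0961). Markers of other cells differed in these females too, none of them called. All 6 lobe markers were higher, with sums of 742 to 1684 CPM against 603 to 909 CPM in controls, and Pomc was at 106880.0 ± 41468 CPM (SD, n = 4) against 48361 ± 14326 CPM (SD, n = 4), with a log2 change of 1.15 (FDR = 0.109). Prl, the lactotrope hormone, was at 96746 to 170264 CPM against 159082 to 231705 CPM, with a log2 change of -0.67 (FDR = 0.115). Of 4 gonadotrope markers Lhb and Nr5a1, both lower, and of 3 macrophage markers C1qa and Cx3cr1, both higher, had an unadjusted p under 0.05. Fshb, the 1 gonadotrope marker that was higher, was at 323 ± 174 CPM (SD, n = 4) against 128 ± 57.7 CPM (SD, n = 4). S100b (1.84) and the forebrain marker Slc17a7 (1.43) also had an unadjusted p under 0.05. Their highest PSD females were at 35.3 and 60.7 CPM, against group medians of 5.11 and 19.6 CPM. Sox2 and Camk2a, the other markers tested on their lists, had 0.15 and 0.07. The 4 gonadotrope markers summed to 560 to 891 CPM after PSD against 625 to 784 CPM in controls, and the 3 macrophage markers to 60.2 to 83.8 against 55.6 to 59.8 CPM. With the lobe score as a term Vgf had 0.90 (FDR = 0.311) and Chga 0.64 (FDR = 0.0664), with the forebrain score 1.37 (FDR = 0.0855) and 1.10 (FDR = 0.0776), and with log2 total count 1.20 (FDR = 0.169) and 1.04 (FDR = 0.165). The part of the other cell types was not tested.

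In males, PSD gave Vgf at 15.3, 21.2 and 23.0 CPM and Chga at 1851, 2048 and 2728 CPM, and for each gene the lowest of the 3 lay within the control range. Log2 changes were 0.90 ± 0.25 (FDR = 0.329) and 0.51 ± 0.16 (FDR = 0.402), and without male control 1 0.75 (FDR = 0.331) and 0.39 (FDR = 0.38). Pcsk1n, the gene of the PC1/3 inhibitor, had the largest male difference of the members by p. It was at 575, 527, 611 and 751 CPM in control males and at 291, 276 and 389 CPM in PSD males, below every control. The log2 change was -0.94 ± 0.18 (FDR = 0.135), not called by edgeR, which called 0 of 7 members and 0.00547% of all genes. An unadjusted p under 0.05 was found for 4 members, and for 1617 of all 18271 genes. Without male control 1 the log2 change of Pcsk1n was -0.98 (FDR = 0.117). DESeq2 called Pcsk1n, at -0.94 (FDR = 0.00513), and no other member, and its share of all genes is not given here. In PSD + restraint males Pcsk1n was at 619, 582 and 358 CPM, with mouse 3 in the range of the PSD males. In females Pcsk1n spread widely within every group (398 to 679 CPM in controls, 403 to 712 CPM after PSD), with a log2 change of 0.06 (FDR = 0.919). The difference between the sexes in the PSD response of Pcsk1n, females minus males, was 1.01 ± 0.33 (FDR = 0.325). The GENCODE model of Pcsk1n overlaps Eras on the opposite strand, and whether counting used strand is not given in the sources used here, so its counts are less certain.

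Restraint alone called 0 of 7 members in females (edgeR, 0.543% of genes called, 2 members at an unadjusted p under 0.05, 0 by DESeq2), 0 of 7 in males (edgeR, 0.296%, 1 member, 0 by DESeq2) and 0 of 7 in all mice (edgeR, 1.14%, 1 member, 0 by DESeq2). Of all genes, 1765 of 18059 in females, 927 of 18271 in males and 1948 of 18936 in all mice had an unadjusted p under 0.05 (edgeR). Vgf, which neuronal activity and growth factors induce, had the smallest p of the members in females and in all mice. It was at 25.7, 26.1, 14.2 and 16.9 CPM in restrained females, where mouse 3 lay within the control range, and at 14.6 and 16.7 CPM in the 2 restrained males. Its log2 change was 0.68 ± 0.25 (FDR = 0.353) in females, 0.56 ± 0.29 (FDR = 1) in males and 0.63 ± 0.20 (FDR = 0.135) in all mice, and without male control 1 0.40 (FDR = 0.894) in males and 0.57 (FDR = 0.202) in all mice. In males Chgb had the smallest p, at 5296 and 5029 CPM in the restrained males against 4473, 3205, 4741 and 3952 CPM in controls, both above every control. Its log2 change was 0.34 ± 0.14 (FDR = 0.891), and without male control 1 0.38 (FDR = 0.623). Chga in restrained females was at 1336, 1901, 989 and 1054 CPM, with 2 mice above all controls and 2 within their range. Restrained females 1 and 2, with the higher Vgf and Chga, also had the higher lobe scores (5.11 and 5.38, against 4.42 and 4.50).

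Adding restraint to PSD moved no member past the threshold. Between PSD + restraint and PSD mice, edgeR called 0 of 7 members in females (0.941% of genes called, 1 member at an unadjusted p under 0.05, 0 by DESeq2) and 0 of 7 in males (0.285%, 2 members, 0 by DESeq2). Of all genes, 1905 of 18059 in females and 1883 of 18271 in males had an unadjusted p under 0.05 (edgeR). In this contrast Vgf had log2 changes of 0.21 (FDR = 0.867) in females and 0.75 (FDR = 0.341) in males. Pcsk1n had 0.70 (FDR = 0.205) in males, and it was called without PSD + restraint male 3, at 0.91 (FDR = 0.0283). Between restrained mice with and without PSD, edgeR called 0 of 7 in females (0.0332% of genes called, 3 members at an unadjusted p under 0.05, 0 by DESeq2) and 0 of 7 in males (0.00547%, 4 members, 0 by DESeq2). That unadjusted limit was met by 2555 of 18059 genes in females and 1925 of 18271 in males. Vgf differed by 0.81 (FDR = 0.222) in females and 1.10 (FDR = 0.292) in males on the log2 scale (PSD minus no PSD), and Chga by 0.58 (FDR = 0.25) and 0.49 (FDR = 0.417), none past the threshold. The interaction of PSD and restraint called 0 of 7 members in females, in males and in all mice (edgeR, 0% of genes called in each, 0 members at an unadjusted p under 0.05, 0 by DESeq2). For Vgf the interaction was -0.18 ± 0.28 (FDR = 1) in all mice. Without female PSD mouse 1 or male control 1, 0 members were called in those of these contrasts that hold the mouse.

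Among the members, the sexes differed most in Scg2. Across treatments it ranged from 1371 to 3124 CPM in the 16 females, with a median of 2186, and from 3487 to 4675 CPM in the 12 males, with a median of 4085. No female reached the lowest male. The log2 difference of females minus males was -0.93 ± 0.08 (FDR = 1.9e-09), and it was called in each of 37 alternatives. In the same model 3 of 7 members were called against 14.9% of all genes. Chga was lower in females, with a log2 difference of -0.39 ± 0.11 (FDR = 0.00546), and this difference too was called in each of the 37. Its controls were at 942 to 1157 CPM in females and 1145 to 1886 CPM in males, ranges that overlapped narrowly. Only male control 1 lay within the female range, with the other control males at 1573 to 1886 CPM. Vgf was higher in females, with a log2 difference of 0.36 ± 0.14 (FDR = 0.0478). That call was fragile. It was kept in 13 of the 37 alternatives and in 9 of the 28 that left out 1 mouse, and the log2 difference without male control 1 was 0.33 (FDR = 0.0781), without female PSD mouse 1 0.36 (FDR = 0.0591) and without male PSD mouse 1 0.31 (FDR = 0.0928). Chgb, Scg3, Scg5 and Pcsk1n differed between the sexes by -0.08, -0.11, -0.02 and 0.01 on the log2 scale, none of them called. Cell type markers differed in the same model. Prl was higher in females, with a log2 difference of 2.04, at 159082 to 231705 CPM in control females and 34768 to 41601 CPM in control males. Both somatotrope markers (Gh and Ghrhr, -1.05 and -0.70), both thyrotrope markers (Tshb and Trhr, -0.40 and -0.69) and 2 of 4 gonadotrope markers (Lhb and Fshb, -0.72 and -2.40) were called lower in females. In controls the somatotrope markers summed to 63146 to 98097 CPM in females and 144360 to 222380 CPM in males, the thyrotrope markers to 225 to 545 and 269 to 453 CPM, and the gonadotrope markers to 625 to 784 and 1586 to 2103 CPM. Pax7 of the lobe markers, 1 of 6, and Slc17a7 and Camk2a of the forebrain markers, 2 of the 3 tested, were called higher in females. The part of these cells in the differences between the sexes was not tested.

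Whether a response differed between the sexes was tested in a model that gives every sex and treatment its own mean. EdgeR called 0 of 7 members for restraint (0% of genes called, 0 members at an unadjusted p under 0.05), 0 of 7 for PSD (0%, 3 members) and 0 of 7 for PSD + restraint (0%, 1 member), and DESeq2 called 0 in each. Of all 18936 genes, 804, 2038 and 1363 had an unadjusted p under 0.05 for restraint, PSD and PSD + restraint (edgeR). The 3 members under an unadjusted p of 0.05 for PSD were Pcsk1n, Scg2 and Chgb, with differences (female minus male log2 change) of 1.01 (FDR = 0.325), 0.52 (FDR = 0.384) and -0.49 (FDR = 0.389). For Vgf after PSD + restraint the difference was -0.17 ± 0.39 (FDR = 0.963). Without male control 1, 0 members were called in the 3 tests, and without female PSD mouse 1, 0 in the test of PSD.

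Scg3 and Scg5 varied least. Scg5, the gene of the PC2 chaperone 7B2, had log2 changes against controls of 0.09 in females and 0.01 in males after PSD + restraint, and its 28 values ran from 599.8 to 819.8 CPM. Scg3 was at 234, 284, 245 and 288 CPM in PSD females and 295, 273 and 297 CPM in PSD males, against 288 to 362 and 316 to 339 CPM in the controls. All PSD males lay below all control males. In all mice its log2 change after PSD was -0.22 ± 0.06 (FDR = 0.0645), under the limit on size and short of the p threshold.

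Mouse by mouse within groups, Vgf and Chga moved together and Chgb did not join them. After each gene was centred on its 8 group means, the log2 CPM of Vgf and Chga had a Pearson r of 0.796 over 28 mice, while Vgf and Chgb had -0.454. Scg2 went with Scg5 (0.667) and Chgb with Scg3 (0.627). These are descriptions, and the values of a mouse share its library, depth and tissue makeup. With the lobe score, r was 0.541 for Vgf and 0.628 for Chga, and without male control 1 0.669 and 0.778. For Chgb it was -0.372, and -0.493 without that mouse.

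**Figure D4:**
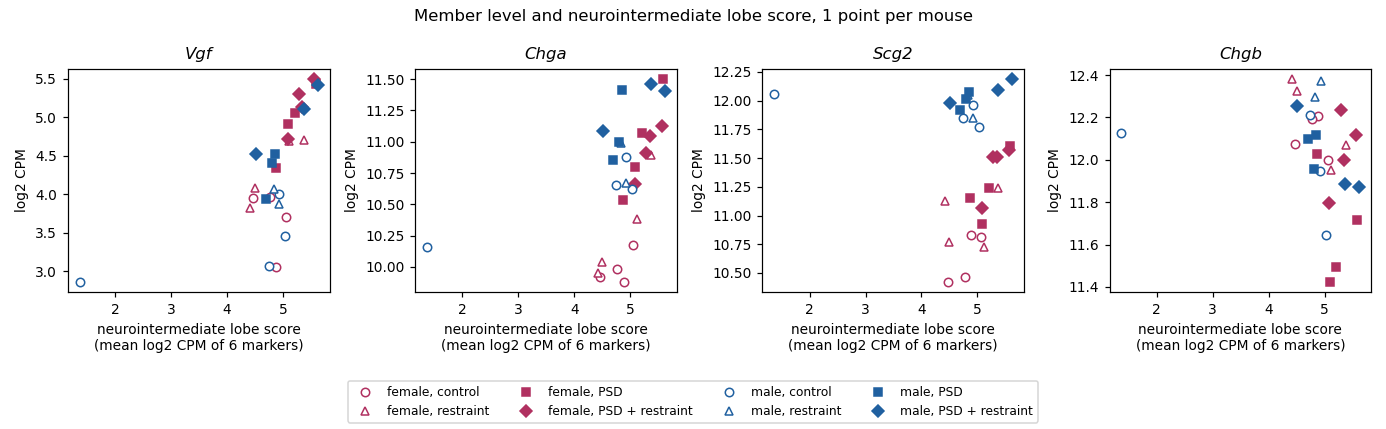
Log2 CPM of Vgf, Chga, Scg2 and Chgb (vertical axes) against the neurointermediate lobe score of each of the 28 mice (horizontal axes), coloured by sex and marked by treatment, with PSD groups filled. Male control 1 lies alone at a score of 1.37, and PSD + restraint mice of both sexes reach the upper end of score, Vgf and Chga.

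By the same measure, over 15462 genes with a mean of at least 1 CPM, the transcripts most like each member were these. For Vgf they were Ppp1r37 (0.889), Jag2 (0.868), Trp53i11 (0.863), and for Chga Nelfcd (0.958), Il20ra (0.917), Rbfox3 (0.916), with r in parentheses. Those nearest to Chgb were Fetub (0.879), 2700049A03Rik (0.86), Cmc2 (0.857), and those nearest to Scg2 Pla2g2d (0.853), Dbf4 (0.851), Tgfbr3 (0.85). Scg3 was closest to Os9 (0.874), Ica1 (0.853), Tmed10 (0.824), of which Ica1 is on the list of granule genes. Lower likeness was found for Scg5, with Bend7 (0.763), 5330411J11Rik (0.76), Ypel4 (0.741), and high likeness for Pcsk1n, with Scand1 (0.948), Dmrta2 (0.945), 4930413G21Rik (0.943). No r in this list moved by more than 0.03 without male control 1.

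The machinery that works on granins gave a mixed picture. Of 29 other granule genes (processing enzymes, membrane and lumen proteins, granule formation and exocytosis), all were tested, and PSD + restraint raised 4 in females and lowered 0, 4 of 29 beside 2.2% of all genes called. They were Cpe (0.46, FDR = 0.0122), carboxypeptidase E, Rab3b (0.60, FDR = 0.0137), a small GTPase of exocytosis, Pcsk1 (0.72, FDR = 0.0144), the convertase PC1/3, and Qpct (0.44, FDR = 0.0295), glutaminyl cyclase, with log2 changes in parentheses. The median over the 29 was 0.12, that over the 7 members 0.16, and that over all genes 0.01. In males 2 rose and 0 fell, beside 2.56% of all genes, Pcsk1 (0.40, FDR = 0.0208) and Ptprn (0.43, FDR = 0.0336), a granule membrane protein, with medians of 0.10 for the list and 0.02 for the members. In all mice 4 rose and 0 fell, beside 5.46% of all genes, Pcsk1 (0.57, FDR = 1.9e-04), Cpe (0.35, FDR = 0.0016), Pcsk2 (0.996, FDR = 0.00926), the convertase PC2, and Ptprn (0.33, FDR = 0.0157). Pcsk2 is also strong in melanotropes of the intermediate lobe, and in the same model Pomc, their prohormone, had 0.99 (FDR = 0.0157) and Oacyl 0.86 (FDR = 0.0227). Male control 1 had Pcsk2 at 222 CPM, against 780 to 1026 CPM in the other control males. Its Pomc was 11423 CPM (group median 54011) and its Oacyl 145 CPM (group median 592). No value without that mouse is given for these genes in this paragraph. After PSD alone 0 of the 29 were called in females (edgeR, 10 at an unadjusted p under 0.05, 3 by DESeq2), 0 in males (4, and 0 by DESeq2) and 0 in all mice (10, and 2 by DESeq2). Beside these, edgeR called 0.0277%, 0.00547% and 0.671% of all genes. An unadjusted p under 0.05 was found for 3567 of 18059, 1617 of 18271 and 3328 of 18936 genes. The shares of all genes called by DESeq2 are not given. The smallest p belonged to Cpe and Rab3b in females (0.50 (FDR = 0.0591) and 0.49 (FDR = 0.109)), to Pcsk1 and Resp18 in males (0.30 (FDR = 0.293) and 0.25 (FDR = 0.516)) and to Cpe and Pcsk2 in all mice (0.31 (FDR = 0.0375), under the limit on size, and 0.98 (FDR = 0.0544)). Restraint alone called 0 of 29 in females (edgeR, 3 at an unadjusted p under 0.05), males (1) and all mice (1), and 0 by DESeq2, with Pcsk1 and Ctsl (0.36 and 0.21), Vamp2 and Rab3a (0.25 and 0.21) and Pcsk1 and Ptprn (0.23 and 0.17) at the smallest p. Beside these, edgeR called 0.543%, 0.296% and 1.14% of all genes. An unadjusted p under 0.05 was found for 1765 of 18059, 927 of 18271 and 1948 of 18936 genes. Between the sexes 5 of 29 were called, a share near the 14.9% of all genes, Cadps2, an activator of granule release, higher in females (0.62, FDR = 5.2e-11), and Pcsk1, Sytl4, Rab3b and Cyb561 lower, with log2 differences of -0.72, -0.46, -0.66 and -0.34.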

How the data were processed

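Whole pituitary RNA of 28 mice was sequenced as stranded mRNA libraries. Read pairs had been placed on mm10 by MapSplice, and HTSeq 0.9.1 assigned them to UCSC genes (the submitters' processing notes also list DESeq2 1.16.1), and the values used here are the counts the authors deposited per gene and mouse, without normalization. A second deposited table holds the same counts divided by 1 size factor per mouse and was not used. Multimapping and strand settings of the counting bear on overlapping genes and are already in the counts.

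Groups came from the sample labels. Genes kept by filterByExpr were tested in R 4.3.3 with the quasi-likelihood test of edgeR 4.0.16 (limma 3.58.1), after TMM normalization. Each sex had a model of PSD, restraint and their interaction, all mice the same with sex added, and a further model gave each group its own mean. Adjusted p-values (Benjamini-Hochberg, two-sided) run over all genes tested, and genes were called at no more than 0.05 and a difference of 1.25-fold or more. Log2 CPM used a prior count of 2. The lowest chi-square per degree of freedom between 2 mice of a group was 7.48 over 37 pairs, so no library counted as a repeat of another. Totals of 14024465 to 52948531 counts left Vgf as the member with the fewest counts.

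The members and gene lists were chosen with earlier results of these data known. All members are named, other granule genes where called (up to 4 per comparison by p, otherwise the 2 of smallest p), and the 3 genes most like a member. The granule genes searched, in a list of 29, were chosen by name. Alternatives were DESeq2 1.42.0, DESeq2 size factors, no filter, no fold change limit, a replicate block, the neurointermediate lobe or forebrain score as a term, only the groups compared, another gene length and each mouse left out. Chosen after seeing the data were log2 total count as a term and leaving out the 2 libraries that stood apart. The tests were tested on simulated data. Corticosterone and qRT-PCR were not analysed here.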

Additional observations from a re-analysis of the deposited data

Results flagged for a closer look

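Among 35 groups of 4 mice (7 members in the 5 groups of that size), 1 held a value far from the rest, as chance gives in about 1 group in 20. Scg2 in PSD + restraint female 4 was at 2139.8 CPM, while the other 3 mice of the group lay between 2917 and 3048 CPM.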

How the results depend on the processing

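Among counts of called members under alternatives, 405 stayed within 1.5 times the reported count and 16 did not. Most comparisons had 0 members called, and 0 again counts as staying, so the 405 say little about firmness. A change from 3 to 2 counts as staying as well, which hides the Vgf call between the sexes, kept in 13 of 37 alternatives. For PSD in females, where 0 members were called, DESeq2 called 4, the replicate block 1 and leaving out a mouse 0 to 3. For PSD in males, DESeq2 called 1 against 0. For PSD + restraint in females, 3 became 0 with the neurointermediate lobe score as a term and 1 to 3 with a mouse left out (1 without control 2, control 4 or PSD + restraint female 1). For PSD + restraint in males, 2 became 1 with the replicate block, with the forebrain score and with log2 total count as a term, since the FDR of Chga moved to 0.0538, 0.0508 and 0.0676, and 1 to 2 with a mouse left out (1 without control 2 or 3 or PSD + restraint male 1 or 2). For PSD + restraint against PSD in males, leaving out a mouse gave 0 to 1. The cause of these shifts was not tested, and the shares of all genes called under the alternatives are not given. Values of single members were followed where the reported log2 change lay at least 2 standard errors from 0, and none of these reversed direction. Taken with the levels per length, 858 values stayed the same, 42 fell short of the threshold and 10 passed it. Staying the same meant the same direction and side of the threshold, or a level per length within its SD. With another gene length, 3 levels per length moved, those of Chga, Scg3 and Scg5. The replicate block treats equal mouse numbers as pairs, but these were different animals, and deviations from group means correlated on average between -0.105 and 0.011 for mice of one number, so the numbers share only a name. Restrained males numbered 2, so fits without 1 of them assume that the lone mouse varies like the other groups. Vgf, at 7.22 CPM in its lowest mouse, is the member with the fewest counts.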
